A study of Mus musculus with 6 samples.

Results

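The genes of the major histocompatibility complex (MHC), which encode the molecules that display peptides to T cells, were measured in epididymal white adipose tissue of mice by RNA sequencing. They were taken from the deposited expression table as every symbol that begins with H2-, apart from H2-Ke6, which the selection leaves out, together with B2m, Tap1, Tap2, Tapbp, Ciita and Nlrc5. This gave 43 of 22322 genes, of which 27 are class I heavy chain genes, 10 are class II genes, 4 belong to the light chain and peptide loading machinery of class I and 2 are transcriptional regulators. All 43 have an identifier in GENCODE M21 (GRCm38), which places 40 of them on chromosome 17.

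The comparison was between wild type and CD44 knockout (CD44 KO) mice, with 3 libraries of each, and both groups received a high fat diet for 17 weeks. The deleted gene, Cd44, encodes a receptor that binds hyaluronan in the extracellular matrix. The labels used here name no strain, age or knockout allele, and do not say whether the deletion is limited to some cell types. Nothing in the labels states that each library is a separate mouse, so p-values measure the spread between these libraries.

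Class I molecules pair a heavy chain with the light chain beta-2-microglobulin and carry peptides made by the proteasome and pumped into the endoplasmic reticulum by the TAP transporter, and nearly all nucleated cells make them. Class II molecules are alpha and beta chain pairs that carry peptides from the endosome and are made mainly by macrophages, dendritic cells and B cells, and also by adipocytes in obesity. The coactivator CIITA drives the class II genes, and its relative NLRC5 drives the class I genes, both through proteins bound to short promoter elements called the X and Y boxes.

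The promoters are shown first because genes of both classes carry these elements. RefSeq promoter windows on GRCm38.p6 were on hand for 33 of the 43 genes, with more than 1 start for some, 36 windows in all. The 250 bases before each start were searched on both strands for TGANG (N is any base), a short part of the X box. It had to be followed after 15 to 25 bases by ATTGG, the Y box core that the factor NF-Y binds. The motifs do not overlap each other, and the spacing was chosen after these promoters had been seen. In each stretch below the 2 motifs are in capitals, and the letters run 5′ to 3′ on the strand of the gene.
H2-Aa, minus strand, chr17:34287863-34287909: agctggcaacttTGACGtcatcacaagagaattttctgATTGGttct
H2-Eb1, plus strand, chr17:34305772-34305816: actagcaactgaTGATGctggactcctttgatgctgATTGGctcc
H2-Ob, plus strand, chr17:34238814-34238856: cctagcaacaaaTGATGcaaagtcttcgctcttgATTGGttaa
H2-DMb2, plus strand, chr17:34145122-34145167: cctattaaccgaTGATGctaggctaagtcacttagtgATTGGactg
H2-K1, minus strand, chr17:34000355-34000400: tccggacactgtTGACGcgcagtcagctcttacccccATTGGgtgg
H2-Q7, plus strand, chr17:35439079-35439123: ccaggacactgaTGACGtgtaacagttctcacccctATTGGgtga
B2m, plus strand, chr2:122147597-122147642: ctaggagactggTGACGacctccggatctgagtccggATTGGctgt

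The pair was found in 6 of 9 class II windows and 7 of 24 class I heavy chain windows. It was also in 1 of 3 windows of the loading genes. The 7 class I windows belong to 6 genes, since both windows of H2-K1 hold the same site. These matches were always on the strand of the gene. Of all 32851 windows, 1.42% held the pair on the strand of the gene and 2.46% on either strand. H2-Eb2, H2-DMb1, H2-D1, H2-M3, H2-Q4 and H2-Q6 held it as well. H2-DMa, H2-Oa, H2-Q10, H2-T22 and H2-T23 did not hold these letters at this spacing. A match is a description of letters and not a measured binding site. Genes with the pair include 5 tested class II genes whose log2 fold changes ran from -2.50 to 0.34, and H2-K1 and B2m at -0.49 and -0.46.

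Total expected counts ran from 15543317 to 18765009 per library. As a check of the labels, Cd44 stood at 44.11, 144.43 and 78.76 FPKM (fragments per length of transcript and per library size) in wild type against 0.36, 0.59 and 0.43 in CD44 KO (a log2 fold change of -7.27, edgeR adjusted p 0.0126). Adipocyte markers were abundant in every library, with a summed level of 8488 to 23491 FPKM over 9 genes in wild type against 25421 to 44985 in CD44 KO. Cfd (adipsin) leads that gap: without it the sums were 8370 to 22649 and 18291 to 28429, with overlap. Of the 9 genes, 8 had positive log2 fold changes, with a median of 1.01. edgeR called 1 of them higher, Cfd (4.76, adjusted p 0.0473), against 1.74% of all genes. In 4 of the 9 every CD44 KO library was above every wild type library, as in 19.7% of all genes. Lep (leptin) was the 1 negative gene (log2 fold change -1.75, edgeR adjusted p 0.0682). CD44 KO replicate 2 also carried epididymis transcripts, 7175 FPKM summed over 10 marker genes against 0.87 to 4.99 in the other libraries. Most of that sum was Crisp1, at 6359.92 FPKM, followed by Spint5 at 372.65, Adam7 at 325.49 and Lcn5 at 105.01. Of the 10 genes, 2 had no count in any library. CD44 KO replicate 2 was also the lowest library in 7 of the 8 tested class II genes, and the part of epididymis tissue in them was not tested. Without this library the log2 fold changes were -1.18 for H2-Aa, -1.07 for H2-Ab1, -1.08 for H2-Eb1, -2.09 for H2-DMb1 and -1.14 for Ciita, with adjusted p of 0.126, 0.128, 0.135, 0.069 and 0.144 by edgeR.

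Of the 43 genes, 27 had enough counts to be tested by edgeR's quasi-likelihood test. The other 16 were near silent: 8 had no count in any library, and the highest count among the rest was 39. edgeR called 0 of them at a Benjamini-Hochberg adjusted p under 0.05 over all 13829 genes tested, where 2.62% of genes were called, 0.882% lower and 1.74% higher in CD44 KO. At an unadjusted edgeR p under 0.05, 4 class II genes were lower (14.7% of all genes) and 1 regulator was higher (16.3% of all genes). DESeq2 called 4 class II genes lower, and the class I gene H2-Q2 higher, while it called 19% of all 15340 genes with an adjusted p, 9.38% lower and 9.62% higher. Without CD44 KO replicate 1 edgeR called H2-DMb1, H2-M2 and Ciita lower and H2-Q10 higher, beside 16.8% of all genes, 9.65% lower and 7.13% higher. The differences below are therefore descriptions of these libraries unless a call is stated.

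**Figure D1:**
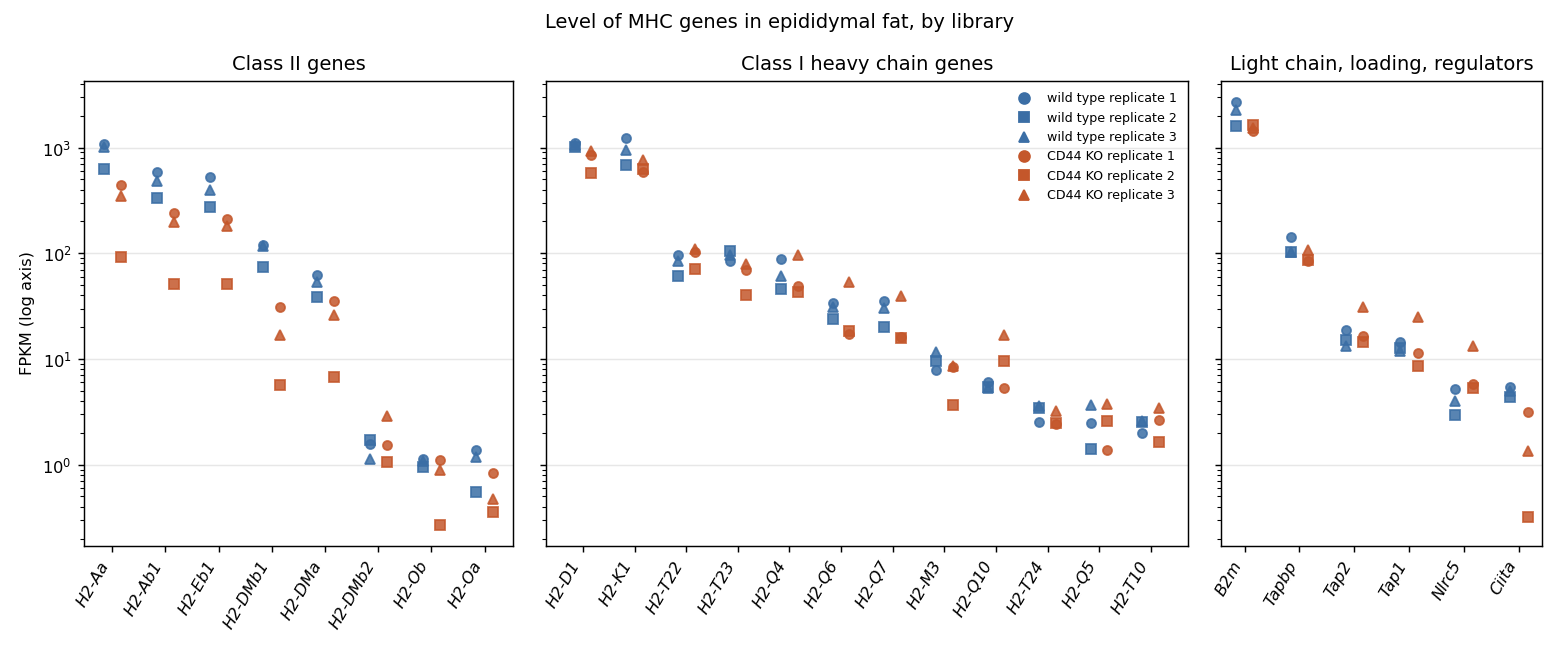
FPKM (log axis) of the tested MHC genes in each of the 6 libraries, in 3 panels for class II, class I heavy chain, and light chain, loading and regulator genes, ordered by mean level. Each point is 1 library, and H2-M2 is left out because 2 of its values are 0. In H2-Aa, H2-Ab1, H2-Eb1, H2-DMb1, H2-DMa, Ciita and the class I genes H2-D1 and H2-T23 all CD44 KO points lie under all wild type points. Such a separation held in CPM for 18.1% of all genes tested.

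The 3 class II genes that encode the classical peptide-presenting chains were lower in every CD44 KO library than in any wild type library. H2-Aa (ENSMUSG00000036594, minus strand of chromosome 17, 34282744 to 34287823), the alpha chain of the I-A molecule, stood at 1079.04, 621.80 and 1010.82 FPKM in wild type against 441.79, 91.79 and 349.06 in CD44 KO. All 3 wild type libraries lie above all 3 knockout libraries, and CD44 KO replicate 2 is far below the rest. Its mean was 904 ± 247 FPKM (SD, n = 3) against 294 ± 181, a log2 difference of -1.59 (SE 0.56, 95% interval -3.13 to -0.05) with an edgeR adjusted p of 0.122. In bulk tissue, fewer cells that carry class II and less class II mRNA per cell cannot be told apart.

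H2-Ab1 (ENSMUSG00000073421, plus strand, 34257689 to 34269419), the beta chain that pairs with H2-Aa, had 584.22, 334.27 and 484.95 FPKM in wild type against 242.17, 51.18 and 197.92 in CD44 KO. The libraries stood in the same order as for H2-Aa, and the groups again did not overlap. This gave -1.48 on the log2 scale (SE 0.55, edgeR adjusted p 0.132). H2-Eb1 (ENSMUSG00000060586, plus strand, 34305867 to 34316674), the beta chain of the I-E molecule, had 524.44, 271.46 and 399.55 FPKM against 211.68, 51.28 and 180.61. The groups did not overlap, and the difference was -1.48 on the log2 scale (SE 0.53, edgeR adjusted p 0.125). DESeq2 called all 3, with adjusted p of 0.0186 for H2-Aa, 0.0283 for H2-Ab1 and 0.0237 for H2-Eb1. Over the 15 alternatives run, their adjusted p ran up to 0.312, 0.315 and 0.307.

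H2-Eb1 had almost no partner in either group. H2-Ea, which encodes the alpha chain of I-E and is listed in GENCODE M21 as a polymorphic pseudogene, had 1, 1 and 1 counts in wild type against 2, 0 and 0 in CD44 KO. As background, several mouse haplotypes, that of C57BL/6 among them, do not transcribe this gene. A second beta chain gene, H2-Eb2, was not tested, with 3, 18 and 4 counts in wild type against 5, 0 and 4 in CD44 KO.

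Among the genes for DM, the endosomal chaperone that helps load class II with peptide, the alpha and beta chains differed between the genotypes to unequal degrees. H2-DMb1 (ENSMUSG00000079547, plus strand, 34153072 to 34160230), the main beta chain, stood at 119.68, 73.34 and 116.33 FPKM in wild type against 30.89, 5.64 and 17.03 in CD44 KO. The highest knockout library was far below the lowest wild type library. With a mean of 103 ± 25.8 FPKM against 17.9 ± 12.7 and a log2 difference of -2.50 (SE 0.58, 95% interval -4.11 to -0.90), it had the lowest p of all tested MHC genes (unadjusted edgeR p 0.00441, adjusted 0.0686). DESeq2 called it at an adjusted p of 0.000155, and edgeR called it without CD44 KO replicate 1 (log2 fold change -3.14, adjusted p 0.0246). Its adjusted p ran from 0.000155 to 0.263 over the 15 alternatives.

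H2-DMa (ENSMUSG00000037649, plus strand, 34119541 to 34139101), the alpha chain, had 62.40, 38.89 and 53.76 FPKM in wild type against 35.45, 6.74 and 25.80 in CD44 KO. The groups lay close together, since CD44 KO replicate 1 was just below wild type replicate 2. The difference was -1.16 on the log2 scale (SE 0.53, edgeR adjusted p 0.189) and -0.74 without CD44 KO replicate 2. The ratio of H2-DMb1 to H2-DMa within a library, in FPKM, was 1.92, 1.89 and 2.16 in wild type against 0.871, 0.837 and 0.660 in CD44 KO. CD44 KO replicate 2, with the least class II mRNA, and CD44 KO replicate 1, with the most in its group, had nearly the same ratio. The means were 1.99 ± 0.152 and 0.789 ± 0.113 (SD, n = 3 each), without overlap. The two-sided exact permutation p of 0.1 is the smallest that 3 against 3 can give (0.217 adjusted over the 13 ratios tested). All 13 ratios were chosen after the values were seen, so their p-values are no support for a difference. In 6 of the 13 the groups did not overlap. H2-DMb1 shares 27.2% of its 50-base windows with its copy H2-DMb2, which stood at only 1.13 to 1.72 FPKM in wild type against 1.07 to 2.86 in CD44 KO.

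The genes for DO, the inhibitor of DM that is best known from B cells, were expressed at a low level. H2-Ob had 1.14, 0.95 and 1.08 FPKM in wild type against 1.11, 0.27 and 0.89 in CD44 KO (a log2 fold change of -0.51, edgeR adjusted p 0.505), and its value ran from -0.85 to -0.14 with 1 library left out (CD44 KO replicate 1 and replicate 2). H2-Oa had 1.38, 0.55 and 1.18 against 0.83, 0.36 and 0.47 (log2 fold change -0.85, edgeR adjusted p 0.337). The groups overlapped in both genes. H2-DMb2 was the exception in sign, at a log2 fold change of 0.34 (edgeR adjusted p 0.629), and it turned to -0.14 without CD44 KO replicate 3.

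Counted together, 7 of the 8 tested class II genes had negative log2 fold changes (47.8% of all genes tested), with a median of -1.32 beside 0.03 for all genes. In 5 of the 8 every CD44 KO library was below every wild type library, as in 18.1% of all genes. The 2 untested genes, H2-Ea and H2-Eb2, are not part of these figures. Wild type replicate 1 was the highest library and CD44 KO replicate 2 the lowest in 7 of the 8, which among all genes held for 12.3% and 25.1%.

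**Figure D2:**
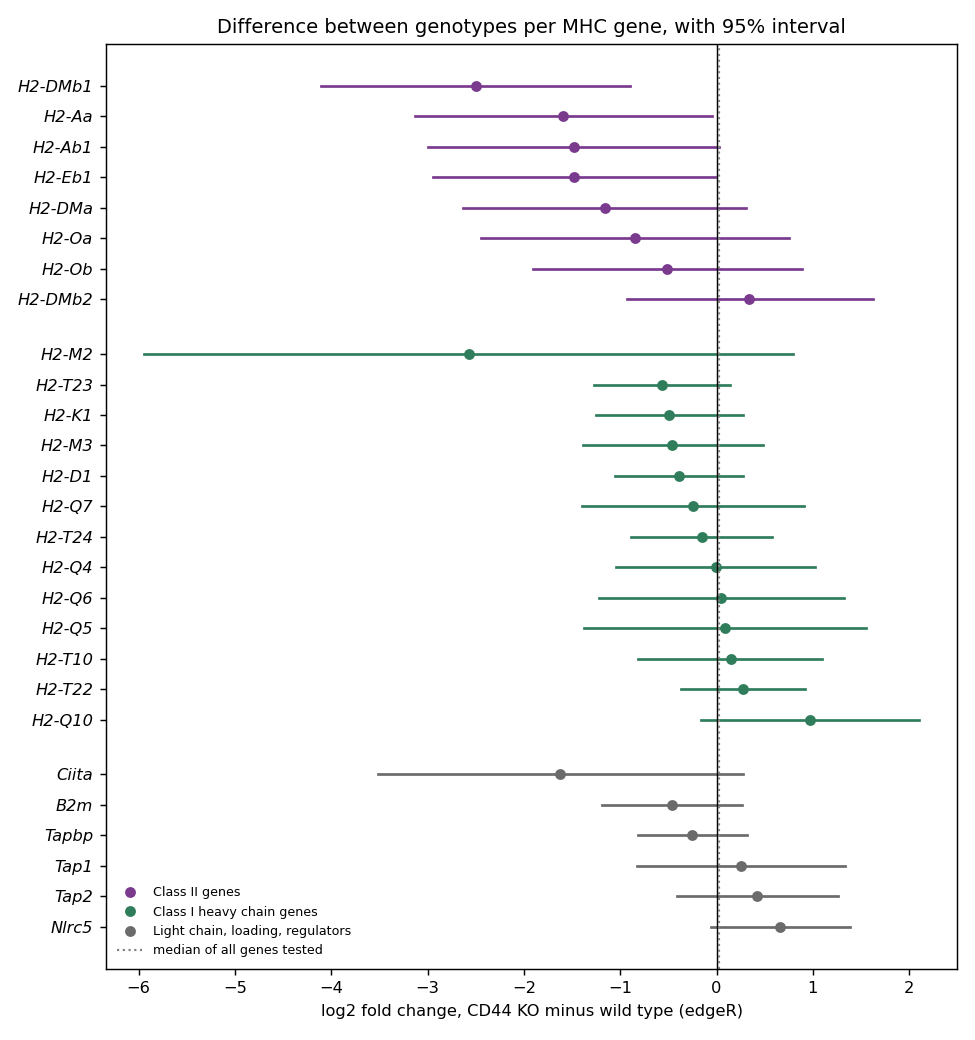
Log2 fold change of the 27 tested MHC genes by edgeR, CD44 KO minus wild type, with 95% intervals (horizontal lines) and the median of all genes tested at 0.03 (dotted line). Class II genes run from -2.50 to 0.34, while 12 of the 13 class I heavy chain genes lie between -0.57 and 0.97 and H2-M2 stands at -2.57 with a wide interval.

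Ciita (ENSMUSG00000022504, plus strand of chromosome 16, 10480059 to 10528418), the coactivator of the class II genes, had 5.37, 4.35 and 5.0 FPKM in wild type against 3.14, 0.32 and 1.34 in CD44 KO. The 3 wild type values were close together and lay above all knockout values, of which replicate 2 was again the lowest. On the log2 scale it differed by -1.62 (SE 0.68, edgeR adjusted p 0.165), and it was called when CD44 KO replicate 1 was left out (-2.50, edgeR adjusted p 0.0415).

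Nlrc5 (ENSMUSG00000074151, plus strand of chromosome 8, 94434356 to 94527272), the corresponding coactivator of class I genes, had higher values in CD44 KO. It stood at 5.19, 2.98 and 4.04 FPKM in wild type against 5.83, 5.30 and 13.14 in CD44 KO. The groups did not overlap, as in 19.7% of all genes tested, which had every CD44 KO library above every wild type library, but they nearly touched, since wild type replicate 1 was just below CD44 KO replicate 2, and CD44 KO replicate 3 was the high library. The log2 fold change was 0.66 (SE 0.26, unadjusted edgeR p 0.0411, adjusted 0.146), and it was 0.36 (adjusted p 0.339) without CD44 KO replicate 3.

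Among the class I genes, the most abundant had lower means in CD44 KO without a call. H2-K1 (ENSMUSG00000061232, minus strand of chromosome 17, 33996017 to 34000347), a classical heavy chain, had 1219.13, 684.74 and 955.47 FPKM in wild type against 581.43, 627.69 and 757.46 in CD44 KO. The groups overlapped, since CD44 KO replicate 3 was above wild type replicate 2. On the log2 scale the difference was -0.49 (SE 0.27, 95% interval -1.25 to 0.28, edgeR adjusted p 0.261), and -0.26 without wild type replicate 1.

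H2-D1 (ENSMUSG00000073411, plus strand, 35262730 to 35267499), the other classical heavy chain, had 1096.32, 1017.91 and 1058.76 FPKM in wild type against 842.29, 576.08 and 922.38 in CD44 KO. The wild type values were tight and all above the knockout values. The log2 fold change was -0.39 (SE 0.24, edgeR adjusted p 0.29), and -0.24 without CD44 KO replicate 2. B2m (ENSMUSG00000060802, plus strand of chromosome 2, 122147686 to 122153083), the light chain, was the highest of all MHC genes per length, at 2684.29, 1596.94 and 2261.01 FPKM in wild type against 1417.64, 1626.85 and 1529.41 in CD44 KO. The knockout libraries were close to each other, and CD44 KO replicate 2 was above wild type replicate 2. B2m stood at a log2 difference of -0.46 (SE 0.26, edgeR adjusted p 0.26), and at -0.27 without wild type replicate 1. The ratio of B2m to the sum of H2-K1 and H2-D1 was 1.07 ± 0.119 in wild type against 1.09 ± 0.234 in CD44 KO.

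Log2 fold changes of the non-classical class I genes had both signs, and several were highest in CD44 KO replicate 3. H2-T23, which encodes Qa-1, a ligand of NK cell receptors, had 85.27, 105.22 and 95.98 FPKM in wild type against 69.02, 39.89 and 79.78 in CD44 KO. Its groups did not overlap (log2 fold change -0.57, SE 0.25, edgeR adjusted p 0.183), and the value was -0.34 without CD44 KO replicate 2. H2-T22, a ligand of some gamma delta T cells, had 96.30, 60.25 and 84.29 against 102.77, 71.52 and 109.72, with overlap (log2 fold change 0.27, edgeR adjusted p 0.437), and with 1 library left out it ran from 0.11 to 0.44. H2-T22 shares 35.8% of its 50-base windows with other genes, mostly H2-T10, so the split of reads between these 2 is uncertain.

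H2-Q4, H2-Q6 and H2-Q7, of the Q region, were high in a single knockout library. H2-Q4 had 88.15, 46.17 and 60.32 FPKM in wild type against 48.62, 42.94 and 95.60 in CD44 KO, and H2-Q6 had 33.85, 23.83 and 30.82 against 17.21, 18.23 and 53.42. For H2-Q7, which with H2-Q6 encodes Qa-2 molecules, the values were 35.50, 19.91 and 30.46 against 16.03, 15.73 and 39.07. In all 3 genes CD44 KO replicate 3 was the highest of the 6 libraries while the other CD44 KO libraries lay below all wild type libraries, except that H2-Q4 in CD44 KO replicate 1 was just above wild type replicate 2. Their log2 fold changes were -0.01, 0.05 and -0.24 (edgeR adjusted p 0.985, 0.951 and 0.709), and without CD44 KO replicate 3 they were -0.45, -0.68 and -0.82. H2-Q4 also turned to 0.05 with upper-quartile scaling. Between 22% and 32% of the 50-base windows of these 3 genes occur in other genes as well.

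H2-Q10, known as a soluble class I molecule made by the liver, had 6.04, 5.39 and 5.28 FPKM in wild type against 5.32, 9.46 and 16.82 in CD44 KO. The wild type libraries were alike, and CD44 KO replicate 1 was among them. Its log2 fold change was 0.97 (SE 0.41, edgeR adjusted p 0.164), and 1.29 with a call (adjusted p 0.033) without CD44 KO replicate 1, but 0.48 (adjusted p 0.403) without CD44 KO replicate 3. H2-Q10 shares 19.7% of its 50-base windows with other genes, most of them with H2-Q7. H2-M3, which presents formylated peptides, had 7.87, 9.50 and 11.60 against 8.35, 3.67 and 8.59 (log2 fold change -0.46, edgeR adjusted p 0.373), and stood at -0.17 without CD44 KO replicate 2. H2-M2 had 12, 22 and 14 counts in wild type against 7, 0 and 0 in CD44 KO, a log2 difference of -2.57 (SE 1.21, edgeR adjusted p 0.198) that became -6.94 with a call (adjusted p 0.0353) without CD44 KO replicate 1, where both remaining knockout libraries are at 0 and the fitted size is no bound. The other tested class I genes, H2-Q5, H2-T10 and H2-T24, lay between -0.15 and 0.15 on the log2 scale, at 1.38 to 3.76 FPKM. GENCODE M21 lists H2-Q5, H2-T10 and the untested H2-Bl as polymorphic pseudogenes, and they are counted among the 27 class I genes.

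Of the class I genes that were too low to test, H2-Q2 was seen in 1 group only. It had no count in the 3 wild type libraries and 7, 39 and 4 in CD44 KO, at least 18.6-fold higher when wild type is set at a floor of 3 counts over the group. Most of these counts came from CD44 KO replicate 2, the library with epididymis transcripts. DESeq2 called it, with an adjusted p of 0.00752. The strain is not named, and H2 haplotypes of the mice that differ from the reference, which can change the counts of class I genes, were not tested. H2-T3 had 1, 1 and 2 counts in wild type and none in CD44 KO. H2-Bl, H2-M10.1, H2-M9 and H2-Q1 had at most 11 counts in a library, and H2-M1, H2-M5, H2-M11 and 5 further genes of the H2-M10 group had none.

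The loading genes followed no common direction. Tap1 and Tap2, the 2 subunits of the peptide transporter, had 14.57, 12.75 and 11.93 and 18.66, 15.16 and 13.27 FPKM in wild type. In CD44 KO they stood at 11.49, 8.65 and 25.05 and at 16.56, 14.55 and 30.85, so CD44 KO replicate 3 was again high in both. Their log2 fold changes were 0.25 and 0.42 (edgeR adjusted p 0.682 and 0.355), and without that library they were -0.33 and 0.04. Tapbp, which encodes tapasin, the bridge between TAP and class I, had 142.18, 103.32 and 102.30 FPKM against 84.90, 87.16 and 107.13 (log2 fold change -0.25, edgeR adjusted p 0.426), and -0.06 without wild type replicate 1.

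Over the 13 tested class I heavy chain genes 8 log2 fold changes were negative and 5 positive, with a median of -0.15 beside 0.03 for all genes. In 3 of the 13 (H2-D1, H2-T23 and H2-M2) all CD44 KO libraries were below all wild type libraries, a share near the 18.1% of all genes. CD44 KO replicate 3 was the highest library in 7 of the 13 (24.3% of all genes). The median without that library was -0.53.

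The balance of class II to class I was lower in CD44 KO in every library. Summed over all 10 class II genes the level was 2374, 1343.3 and 2069 FPKM in wild type against 966, 208 and 775 in CD44 KO. Over all 27 class I heavy chain genes it was 2677, 1982 and 2344.0 against 1699, 1414 and 2094. The ratio of the sums was therefore 0.887, 0.678 and 0.883 in wild type against 0.569, 0.147 and 0.370 in CD44 KO. For the single genes H2-Aa and H2-K1 it was 0.950 ± 0.0939 in wild type against 0.456 ± 0.307 in CD44 KO (SD, n = 3 each), without overlap (two-sided exact permutation p 0.1, the smallest possible; 0.217 adjusted over 13 ratios).

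**Figure D3:**
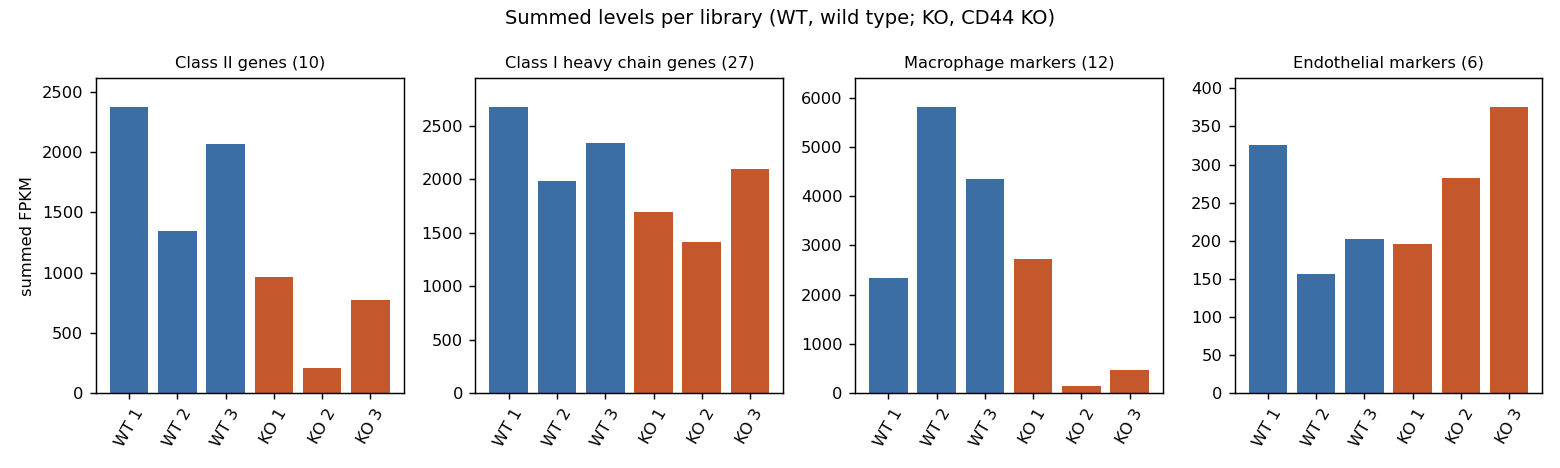
Summed FPKM per library (bars, linear axes from 0) of the class II genes, the class I heavy chain genes, 12 macrophage markers and 6 endothelial markers. Class II sums are highest in wild type replicate 1 and lowest in CD44 KO replicate 2, while macrophage sums are highest in wild type replicate 2, at 5808 FPKM.

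Markers of macrophages, which carry class II, had lower mean levels in CD44 KO as well, but not in the same order of libraries. Each of 12 macrophage markers had a negative log2 fold change (47.8% of all genes tested), from -4.11 for Itgax to -0.02 for Mertk, with a median of -2.0. Of these markers edgeR called 0 (0.882% of all genes lower). At an unadjusted edgeR p under 0.05, 3 were lower (14.7% of all genes). The summed level of the 12 markers was 2348, 5808 and 4348 FPKM in wild type against 2732, 155 and 466 in CD44 KO. Wild type replicate 1 thus had the least macrophage mRNA and the most class II mRNA of its group. CD44 KO replicate 1 and wild type replicate 1 had like macrophage sums, 2732 and 2348 FPKM, or 958 and 984 without Lyz2, the most abundant marker, and had 966 and 2374 FPKM of class II. The class II median was -1.73 when CD44 KO replicate 1 was left out and -0.91 when CD44 KO replicate 2 was.

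The ratio of H2-Ab1 to Csf1r, the receptor gene that marks macrophages, was 5.89, 1.72 and 3.20 in wild type against 2.44, 8.78 and 8.42 in CD44 KO, with overlap. Set against Ptprc, the gene of the pan-leukocyte antigen CD45, H2-Ab1 stood at 27.7, 4.71 and 11.0 in wild type against 13.5, 29.6 and 35.9 in CD44 KO. Both ratios therefore overlapped between the genotypes and were highest in CD44 KO replicates 2 and 3. In these libraries the denominators were lowest, at 5.83 and 23.50 FPKM for Csf1r and 1.73 and 5.51 for Ptprc. The amount of class II mRNA per cell was not tested.

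Dendritic cell markers summed to 136 to 163 FPKM in wild type against 47.8 to 152 in CD44 KO, with 8 of 10 tested genes negative, 0 called and a median of -0.49. Most of that sum is Clec10a and Fscn1, and without Clec10a it was 47.9 to 75.5 against 38.8 to 63.0. Log2 fold changes in the list had both signs: Xcr1 stood at -1.11 and Flt3 at -0.58, and Zbtb46 at 0.89 and Itgae at 1.66, with adjusted p of 0.323, 0.568, 0.14 and 0.136 by edgeR. B cell markers were near the lower limit, at 7.87 to 8.89 FPKM over 8 genes in wild type against 4.53 to 7.07 in CD44 KO, and without Cd22 at 2.1 to 4.77 against 3.96 to 6.64. Cd79a, part of the B cell receptor, had a log2 fold change of 1.74 (edgeR adjusted p 0.0907), and Ms4a1, a defining B cell gene, reached at most 1.13 CPM (counts scaled by library size). T and NK cell markers summed to 37.1 to 75.0 FPKM in wild type against 3.00 to 20.2 in CD44 KO. In wild type most of this is Il7r, without which the sums were 7.61 to 16.8 and 2.78 to 11.3, with overlap. Of the 11 tested T and NK cell genes, 9 had negative log2 fold changes and 2 positive, with a median of -0.63 and 0 called. Trac, a T cell receptor gene, stood at -1.78 (edgeR adjusted p 0.08). The 2 positive genes were Cd3d and Cd3e, at 0.28 and 0.26, with adjusted p of 0.86 and 0.785 by edgeR. Ifng, the cytokine gene best known for inducing CIITA, had at most 0.119 CPM. Endothelial markers, from cells rich in class I, were at 157 to 326 FPKM in wild type against 195 to 376 in CD44 KO. The part of these cells in the MHC values was not tested.

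**Figure D4:**
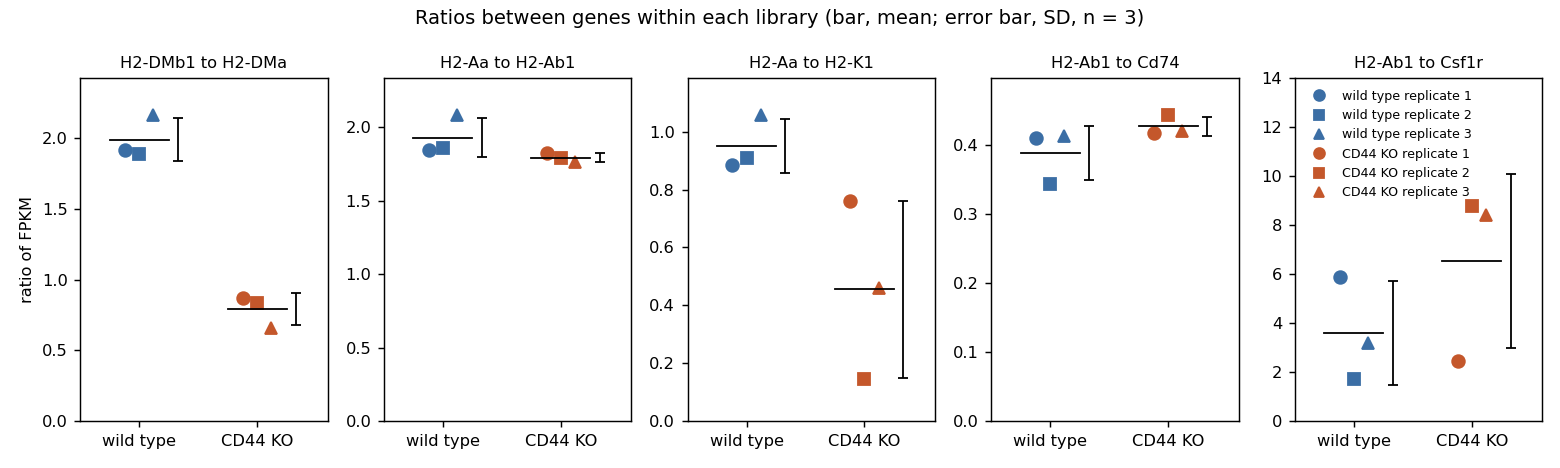
Ratios of FPKM between genes within a library, by genotype (points, libraries; horizontal bars, mean; error bars, SD, n = 3; linear axes from 0). H2-DMb1 to H2-DMa separates the genotypes (0.660 to 0.871 in CD44 KO, 1.89 to 2.16 in wild type), while H2-Ab1 to Csf1r overlaps.

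Proportions among the other class II genes were closer between the genotypes. H2-Aa to H2-Ab1 was 1.93 ± 0.133 in wild type against 1.79 ± 0.0303 in CD44 KO, and H2-Ab1 to Cd74, which encodes the invariant chain, was 0.389 ± 0.0391 and 0.427 ± 0.0142. Both pairs of groups just failed to overlap (exact permutation p 0.1 each, 0.217 adjusted). H2-DMa to H2-Ab1 was 0.111 ± 0.00478 in wild type against 0.136 ± 0.00889 in CD44 KO, while H2-DMb1 to H2-Ab1 was 0.221 ± 0.0176 and 0.108 ± 0.0208. Relative to H2-Ab1, the DM beta chain was lower and the alpha chain slightly higher in every CD44 KO library.

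Genes outside the H2- names that work with the MHC were taken from a list of 50, of which 46 were tested. edgeR called 0 of them, and at an unadjusted p under 0.05 it had 10 lower and 3 higher (14.7% and 16.3% of all genes). DESeq2 called 9 lower and 1 higher. Without CD44 KO replicate 1 edgeR called 10 lower and 1 higher, against the shares of all genes given above. All 7 partners of class II had negative log2 fold changes (47.8% of all genes tested), with a median of -1.73. In 3 of the 7 every CD44 KO library was below every wild type library, as in 18.1% of all genes. Unlike in the class II genes, wild type replicate 2 was the highest library in 6 of the 7 (24.8% of all genes). Cd74 stood at 1424.43, 971.67 and 1174.05 FPKM in wild type against 580.34, 115.36 and 469.83 in CD44 KO, in the same pattern as the class II chains (log2 fold change -1.60, SE 0.55, edgeR adjusted p 0.119). Marchf1, the ubiquitin ligase that removes class II from the cell surface, had 8.27, 12.13 and 9.69 FPKM against 3.59, 0.64 and 1.26 (log2 fold change -2.42, SE 0.56, edgeR adjusted p 0.0696). Cd63, a tetraspanin of the class II compartment, stood at -1.13 (edgeR adjusted p 0.106).

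The 12 partners of class I, among them the immunoproteasome genes Psmb8, Psmb9 and Psmb10, had a median of -0.14 and ran from -0.53 to 0.49. Lnpep, an aminopeptidase of cross-presentation, was the highest, at 0.49 (edgeR adjusted p 0.133), and Calr, the chaperone calreticulin, the lowest, at -0.53 (edgeR adjusted p 0.219). Psme3, a proteasome activator subunit, stood at -0.23 (edgeR adjusted p 0.249).

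Of 18 tested genes of transcription and interferon gamma signalling, 8 were negative and 10 positive, with a median of 0.13. The subunit genes of RFX, the X box complex, stood at 0.15 (Rfx5), 0.26 (Rfxap) and 0.30 (Rfxank), with adjusted p of 0.663, 0.337 and 0.332 by edgeR. The lowest p belonged to Jak1, a kinase of the interferon receptor, at -0.62 (edgeR adjusted p 0.0948), Ifngr2, a receptor chain, at -1.12 (0.104), and Nfya, a subunit of the Y box factor, at -1.12 (0.125). Genes of the same complexes had positive values: Jak2 at 0.44 (edgeR adjusted p 0.229), Ifngr1 at 0.48 (0.157), Nfyb at 0.53 (0.184) and Nfyc at 0.23 (0.32). Irf8, a factor of macrophages and dendritic cells, was at -1.76 (0.125). Irf1, an interferon-induced activator, was highest in CD44 KO replicate 3, with 25.65, 16.87 and 22.71 FPKM in wild type against 23.25, 20.79 and 45.12 in CD44 KO. Nlrc5, Tap1, Tap2, H2-Q4, H2-Q6 and H2-Q7 were highest in that library too. It was the highest library in 11 of the 27 tested MHC genes and in 24.3% of all genes, but not in H2-K1, H2-D1, B2m, Tapbp or H2-T23.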

How the data were processed

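RNA of epididymal fat was sequenced in 6 libraries, 3 per genotype, grouped by the genotype label. Per the labels' protocols, mRNA was enriched with oligo(dT) and made into NEBNext Ultra libraries. HISAT2, StringTie 1.3.1, RSEM and DESeq2 are listed, with no role for each, per the submitters' processing notes. For genome build, annotation and strandedness: not given in the sources used here. The authors deposited expected counts (estimated counts per gene, 7.57% to 8.30% of values in a library not whole, which can reflect reads shared by related genes) and FPKM rounded to 2 decimals. A second deposited table with the authors' own comparison was not used.

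Expected counts were rounded and fitted with edgeR 4.0.16 in R 4.3.3 (filterByExpr by group, TMM scaling, a robust glmQLFit and then glmQLFTest), and p-values were adjusted by Benjamini-Hochberg over 13829 genes. "edgeR adjusted p" means this value. SE was taken as |log2 fold change|/√F, and 95% intervals use 4 residual degrees of freedom. CPM are TMM-scaled. Alternatives used DESeq2 1.42.0, limma 3.58.1 (voom, and log2(FPKM + 0.1) or log2(FPKM + 1)), other scaling and filters, a replicate block and leaving out each library. Counts and floors cover counting error only.

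All tested members were named, with library values for class II, loading and regulator genes and the 8 class I genes of highest mean FPKM; other tested class I genes were given by range, with up to 4 named by lowest p, and untested members by their counts. Of the partner genes, those called or up to 3 of lowest p per sublist were to be named, and others named in the text were chosen after their values were seen. The ratios, the promoter motifs and the genes left out of marker sums were also chosen after the values were seen. Members and lists were chosen with earlier results of these data known. Shared 50-base windows were counted in the longest transcript of each gene in GENCODE M21. Promoter sequences are from RefSeq (GRCm38.p6). Gene positions are those of GENCODE M21 (GRCm38), matched by identifier.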

Additional observations from a re-analysis of the deposited data

How the results depend on the processing

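Of all genes tested, edgeR called 122 lower and 240 higher in CD44 KO. DESeq2 called 1439 and 1476, limma-voom 169 and 292, the replicate block 0 and 0, and no filter on low counts left 145 higher. Leaving out 1 library gave 0 to 1363 lower and 0 to 1007 higher. Replicate numbers did not pair the samples (correlation of deviations -0.321, -0.218 and -0.0176 for pairs 1 to 3); with the block Cd44 stood at -7.17 (edgeR adjusted p 0.0543) and H2-Q6 at -0.14. The Cd44 log2 fold change was -7.58 to -6.75 with 1 library left out, with the call lost without wild type replicate 3 (-7.36, adjusted p 0.122) and without CD44 KO replicate 3 (-7.25, adjusted p 0.0785).

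MHC genes called lower numbered 0 by edgeR, 4 by DESeq2 (all class II) and 0 to 3 with 1 library left out, 3 only without CD44 KO replicate 1 (H2-DMb1, H2-M2 and Ciita, with 0 to 1 in class II and 0 to 1 in class I). Called higher were 1 by DESeq2 (class I) and 0 to 1 with 1 library left out (H2-Q10). Partner genes called were 9 lower and 1 higher by DESeq2, 1 lower by limma-voom (Marchf1), and 0 to 10 lower and 0 to 1 higher with 1 library left out. The class II median ran from -1.73 to -0.91 and the class I median from -0.53 to -0.02 with 1 library left out, and neither changed sign in any of 13 alternatives.

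Signs of weakly differing genes depended on settings. With 1 library left out, H2-Q4 ran from -0.45 to 0.28, H2-Q6 from -0.68 to 0.33, H2-Q5 from -0.27 to 0.45, Tap1 from -0.33 to 0.52, H2-DMb2 from -0.14 to 0.59 and H2-T10 from -0.12 to 0.37. H2-Q4 was 0.05 with upper-quartile factors, and H2-Q6 was -0.14 by limma-voom and -0.19 and -0.18 on log2 FPKM with pseudocounts 0.1 and 1. The cause was not tested. Of the 43 MHC genes, 16 had too few counts to test, 8 of them with none in any library.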

Other observations

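Relatives of class I outside the H2- names did not share 1 direction. Hfe, a class I-like protein that controls iron uptake, stood at 111.89, 58.66 and 74.63 FPKM in wild type against 37.07, 16.05 and 26.67 in CD44 KO, without overlap between the groups. Its log2 fold change was -1.61 (SE 0.34, edgeR adjusted p 0.0596), and both DESeq2 and edgeR without CD44 KO replicate 1 called it lower. Fcgrt, the neonatal Fc receptor that recycles antibodies and albumin and also pairs with beta-2-microglobulin, had 159.76, 126.03 and 150.11 FPKM in wild type against 223.01, 153.45 and 269.00 in CD44 KO (a log2 fold change of 0.60, edgeR adjusted p 0.137). Cd1d1, which presents lipids to NKT cells, had 168.27, 60.27 and 96.91 against 127.47, 95.92 and 125.62, with overlap (log2 fold change 0.14, edgeR adjusted p 0.815). Mr1 stood at 0.16 (edgeR adjusted p 0.501). Azgp1, too low to test by edgeR on all libraries, had 0, 0 and 1 counts in wild type against 1, 20 and 54 in CD44 KO. It was called higher by DESeq2 (log2 fold change 6.29, adjusted p 0.0102) and by edgeR without CD44 KO replicate 1 (6.53, adjusted p 0.0248).

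Of 5 tested costimulatory genes, 4 had negative log2 fold changes: Cd80 at -1.73, Cd86 at -1.04, Cd40 at -0.99 and Icosl at -0.53, with adjusted p of 0.231, 0.237, 0.38 and 0.201 by edgeR. Cd274, which encodes the inhibitory ligand PD-L1, had 7.24, 6.78 and 5.94 FPKM in wild type against 6.61, 5.45 and 18.86 in CD44 KO, where replicate 3 alone was high (log2 fold change 0.67, edgeR adjusted p 0.353).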
